A study of Mus musculus with 10 samples.

Results

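The Serpina3 genes encode clade A serpins, and they were measured here in primary cultures of mouse tongue epithelium. A serpin is a protease inhibitor that offers a bait loop to a serine or cysteine protease and, once cut, traps the enzyme in an inactive complex. In mice the counterpart of human SERPINA3, the alpha-antichymotrypsin gene, has multiplied into a tandem cluster on chromosome 12, whose members differ mainly in the bait loop. The genes are best known from the liver, where cytokines acting through STAT3 raise them in the acute phase response, and they are also transcribed in epithelia, leukocytes and glia.

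Members were all rows whose gene symbol starts with Serpina3 followed by a letter. There were 8 of them among 18586 rows, namely Serpina3b, Serpina3c, Serpina3f, Serpina3g, Serpina3h and Serpina3i and the pseudogenes Serpina3d-ps and Serpina3e-ps. The RefSeq annotation lists 14 Serpina3 genes and pseudogenes, and the 6 others, Serpina3a, Serpina3j, Serpina3k, Serpina3l-ps, Serpina3m and Serpina3n, were not analysed here. Serpina3h is annotated by RefSeq as a transcribed pseudogene, so that the transcript named Serpina3h is not taken to yield a working inhibitor. The genes drew attention because Serpina3h and Serpina3i differed strongly between culture lines of the same genotype in these libraries. The members were thus selected on the TPM differences between these lines, and such differences are therefore given as a description, and no p-value is given for them.

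All cells carried the Krt14-CreERT driver, which acts in basal keratinocytes, together with LSL-rtTA and the tetON_H2B-GFP reporter. The 6 EY libraries additionally carried tetON_E6-E7, the HPV oncogenes that disable p53 and the RB proteins, and tetON_YAP1S127A, a constitutively active form of the Hippo pathway effector YAP. The 4 N libraries carried neither oncogene. Tamoxifen was given into the tongue and doxycycline by diet to adult littermates, and epithelial cells were isolated 15 days after induction, sorted for GFP and cultured with doxycycline. The study's methods place the sort of EY cells after a first period of culture, with expansion afterwards. Lines EY3960, EY4028 and EY4174 gave 2 EY libraries apiece, whereas line N4172 gave every N library. Genotype and line thus cannot be told apart for N, and the spread between libraries of a line may be technical. In bulk RNA, fewer cells with a transcript and less transcript per cell cannot be told apart either.

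Values are TPM, a transcript abundance, which scale each library to a fixed total and correct for transcript length, and the depth behind them is unknown. Between 10852 and 11522 rows per library reached 1 TPM. Yap1 was higher in EY than in N by 1.17 ± 0.14 on the log2(TPM + 1) scale (SE, adjusted p = 0.000173, limma), and the difference from N was 1.04 in EY3960, 0.94 in EY4028 and 1.54 in EY4174. With each line averaged to 1 value the Yap1 call was lost (adjusted p = 0.209, limma). Yap1 is the symbol of the mouse gene, and how far reads of the YAP1S127A transgene entered this row was not tested. All 8 basal keratinocyte markers, among them Krt5, Krt14 and Trp63, reached 1 TPM in every library. None of the 8 hepatocyte markers listed was among the rows analysed, and the summed fibroblast markers stayed under 0.75 TPM throughout.

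In chromosomal order Serpina3f and Serpina3g are followed by Serpina3h and Serpina3i. The 250 bases before the annotated starts of Serpina3f, Serpina3g and Serpina3i are shown because the levels of these 3 genes moved together in these libraries. The sequences are those of RefSeq on GRCm38.p6, all on the plus strand of chromosome 12, at chr12:104214294-104214543, chr12:104235897-104236146 and chr12:104262872-104263121. Capitals mark the letters TTCNNNGAA, the palindromic element that STAT dimers are known to bind.
Serpina3f: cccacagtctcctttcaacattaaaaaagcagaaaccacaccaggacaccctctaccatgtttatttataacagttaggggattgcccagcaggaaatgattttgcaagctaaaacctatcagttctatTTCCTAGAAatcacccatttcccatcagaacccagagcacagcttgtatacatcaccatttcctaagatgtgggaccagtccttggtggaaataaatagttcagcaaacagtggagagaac
Serpina3g: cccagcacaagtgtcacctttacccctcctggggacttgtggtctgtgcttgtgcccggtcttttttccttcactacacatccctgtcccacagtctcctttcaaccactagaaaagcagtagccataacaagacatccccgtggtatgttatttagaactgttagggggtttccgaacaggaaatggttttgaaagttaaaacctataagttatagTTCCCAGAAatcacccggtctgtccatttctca
Serpina3i: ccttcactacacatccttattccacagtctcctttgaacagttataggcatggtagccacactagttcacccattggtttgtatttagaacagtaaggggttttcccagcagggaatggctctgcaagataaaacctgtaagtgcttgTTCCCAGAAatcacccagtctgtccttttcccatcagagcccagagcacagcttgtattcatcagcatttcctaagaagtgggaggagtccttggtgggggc

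The match was TTCCTAGAA in Serpina3f, 121 to 113 bases before the start, and TTCCCAGAA in both Serpina3g and Serpina3i, 33 to 25 and 102 to 94 bases before it. A second annotated start of Serpina3f placed the same letters 210 to 202 bases upstream. Of 32851 RefSeq promoter windows of the same length, 7.02% held this element on either strand. The windows of Serpina3b and Serpina3c did not hold it, nor did those of Serpina3a, Serpina3j and Serpina3n, whose levels were not analysed. No window was available for Serpina3d-ps, nor for Serpina3h and Serpina3e-ps, whose levels moved with those of Serpina3f, Serpina3g and Serpina3i. In Serpina3f, Serpina3g and Serpina3i the match was followed by the same letters, atcaccc, so these matches are not independent of one another. A link between the element and the levels was not tested. The other elements are given for the members only. The letters GGGNNNNNCC, a loose form of the NF-kB element, occurred in Serpina3f, Serpina3g and Serpina3i as well, but in 45.8% of all windows. The TEAD element GGAATG, through which YAP reaches DNA, occurred in Serpina3b and Serpina3i and in 12.6% of all windows. The AP-1 element TGANTCA was in none of these windows and in 6.75% of all. The TATA box letters TATAAA occurred in Serpina3b, 28 to 23 bases before the start, and in Serpina3c, 132 to 127 bases before it. In Serpina3f they occurred only on the opposite strand, 186 to 181 bases before the start. On either strand they were in 12.4% of all windows. Such matches describe letters only, and binding was not measured.

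Serpina3h had the highest level of the members in N and separated the EY lines most. It was measured at 206, 207, 227 and 257 TPM in the 4 N libraries and at 213 and 209 TPM in EY3960. EY4028 had 523 and 527 TPM, and EY4174 had 1.72 and 1.09 TPM. The EY3960 libraries lay within the range of N, both EY4028 libraries lay above it, and both EY4174 libraries lay far below it. Ranked by mean TPM among the 18586 rows, Serpina3h was at position 521 in N, 588 in EY3960, 255 in EY4028 and 10412 in EY4174.

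Serpina3i, an intact neighbour of Serpina3h that encodes a serpin, followed the same order of lines. Its level was 169, 156, 179 and 209 TPM in N and 145 and 169 TPM in EY3960. In EY4028 it was 390 and 396 TPM, and in EY4174 it was 2.78 and 1.76 TPM. Only the lower EY3960 library left the range of N, and by less than that range spans, whereas EY4028 and EY4174 did not overlap with N on either side.

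Serpina3g, also known as Spi2A, is an intracellular serpin that restrains lysosomal cathepsins leaking into the cytosol and is studied mostly in leukocytes. Here it was measured at 21.2, 21.4, 20.9 and 25.5 TPM in N and at 22.5 and 21.7 TPM in EY3960. The EY4028 libraries had 51.2 and 55.5 TPM, and those of EY4174 had 0.500 and 0.601 TPM. The N mean amounted to 22.2 ± 2.16 TPM (SD, n = 4), which EY3960 matched to within that spread.

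Serpina3f encodes a close relative of Serpina3g. It reached 4.73, 4.52, 4.28 and 4.71 TPM in N, 5.36 and 4.11 TPM in EY3960, 8.40 and 9.61 TPM in EY4028, and 0.104 and 0.0555 TPM in EY4174. The 2 libraries of EY3960 fell on either side of the N range, and the other lines stood apart from it in opposite directions. The pseudogene Serpina3e-ps showed the same order at a lower level, with 1.76, 1.50, 1.83 and 2.12 TPM in N, 1.58 and 1.39 TPM in EY3960, 3.58 and 3.03 TPM in EY4028, and 0.0504 and 0.0958 TPM in EY4174.

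The remaining members stayed under 1 TPM in all 10 libraries and were not tested, since a gene needed at least 1 TPM in at least 4 libraries. Serpina3c was listed at 0 in both EY4174 libraries and ranged from 0.0460 to 0.157 TPM in N. Its level was 0.416 and 0.338 TPM in EY3960 and 0.573 and 0.457 TPM in EY4028. For Serpina3c, in contrast to the genes above, EY3960 thus lay above N rather than beside it. Serpina3d-ps was listed at 0 in 2 N libraries and at 0.243 and 0.199 TPM in the others, and it had 0.401 and 0.313 TPM in EY3960, 0.562 and 0.950 TPM in EY4028, and 0.0480 and 0.138 TPM in EY4174. Serpina3b followed another order, with its highest level in N, where it ranged from 0.108 to 0.270 TPM. It had 0.161 and 0.0626 TPM in EY3960, was listed at 0 and 0.0220 TPM in EY4028, and was listed at 0 in both EY4174 libraries. Among the 5 tested members Serpina3e-ps lay nearest to the 1 TPM limit. Serpina3d-ps came near 1 TPM in 1 library only, at 0.950 TPM in EY4028, and had 0.562 TPM or less in the others.

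**Figure D1:**
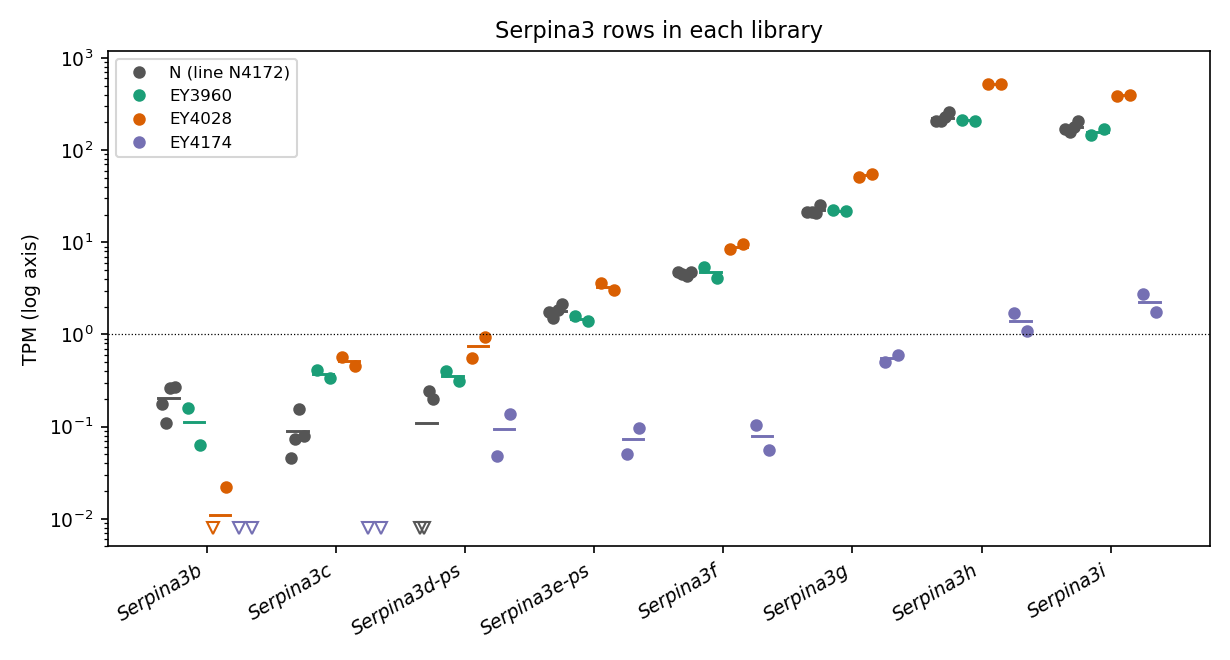
TPM on a log axis of the 8 Serpina3 rows, with a point for each library, a short bar for the mean of each line, open triangles at the bottom for libraries listed at 0 and a dotted line at 1 TPM. From Serpina3e-ps to Serpina3i, the EY4028 points lie above N, the EY3960 points lie at the level of N and the EY4174 points lie lowest.

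EY was first compared with N over all libraries. This sets 3 EY lines against the N4172 line, so that an effect of the oncogenes cannot be told apart from that line. The members were selected on differences between EY lines, which widen the standard errors of this comparison, and the low number of calls therefore says nothing about whether the genotypes differ. Of the 5 tested members, 0 were called when an adjusted p below 0.01 and a log2 difference beyond 1 in size were required, where 3.55% of the 11630 genes tested were called. The log2 difference was -1.80 ± 1.88 for Serpina3h (SE, adjusted p = 0.53, limma) and -1.61 ± 1.66 for Serpina3i (adjusted p = 0.526, limma). It was -0.89 ± 1.19 for Serpina3g, -0.49 ± 0.72 for Serpina3f and -0.31 ± 0.41 for Serpina3e-ps, with adjusted p between 0.621 and 0.657 in limma. At an unadjusted p under 0.05, 4367 of all genes passed but none of these 5, whose smallest unadjusted p was 0.36. The EY libraries held both the highest and the lowest levels of these genes, and for Serpina3h they ran from 1.09 to 527 TPM with a median of 211 TPM. Leaving out line EY4174 turned all 5 differences positive, to between 0.23 for Serpina3e-ps and 0.61 for Serpina3g, again with 0 called.

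Each EY line was then set against N with a spread shared by all 4 lines. These comparisons share the N libraries, rest on 2 libraries of 1 culture line each and use the values on which the members were selected. The counts of members past the thresholds and the shares of all genes beside them are therefore descriptions, and support nothing about the members. In EY3960, 0 of the 5 tested members passed the thresholds, where 7.04% of all genes passed in either direction. The log2 differences of that line were -0.08 ± 0.12 for Serpina3h, -0.18 ± 0.14 for Serpina3i and -0.00388 ± 0.11 for Serpina3g (SE), and those of Serpina3f and Serpina3e-ps were 0.04 and -0.17.

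In EY4028, 3 of the 5 tested members lay past the thresholds on the higher side, where 3.56% of all genes did. These members were Serpina3g at 1.23 ± 0.11, Serpina3h at 1.23 ± 0.12 and Serpina3i at 1.14 ± 0.14 on the log2(TPM + 1) scale (SE). Serpina3f at 0.85 ± 0.13 and Serpina3e-ps at 0.62 ± 0.14 were also higher but under the fold threshold. As ratios of mean TPM to N, the 5 members ran from 1.83 for Serpina3e-ps to 2.40 for Serpina3g. The median difference of all genes in this line was 0.09.

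In EY4174, all 5 tested members lay past the thresholds on the lower side, where 2.94% of all genes did. The log2 difference was -6.55 ± 0.12 for Serpina3h, -5.78 ± 0.14 for Serpina3i, -3.90 ± 0.11 for Serpina3g, -2.36 ± 0.13 for Serpina3f and -1.38 ± 0.14 for Serpina3e-ps (SE). Counted from the most negative of 11630 genes, Serpina3h was at position 4, Serpina3i at 7, Serpina3g at 15, Serpina3f at 52 and Serpina3e-ps at 218. The added pseudocount of 1 TPM shrinks the differences of the lower genes. As plain ratios of mean TPM, N exceeded EY4174 by 159-fold for Serpina3h, 78.4-fold for Serpina3i, 57.04-fold for Serpina3f, 40.4-fold for Serpina3g and 24.6-fold for Serpina3e-ps. On that scale the 5 members differed less from one another than on the log2(TPM + 1) scale.

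**Figure D2:**
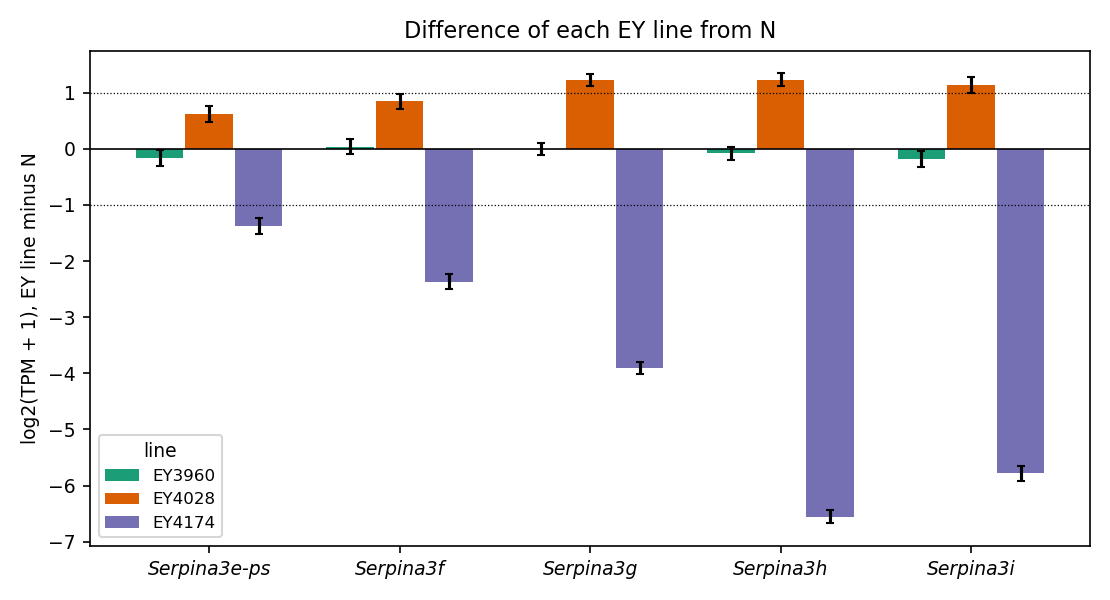
Difference of each EY line from N on the log2(TPM + 1) scale for the 5 tested Serpina3 rows, as bars with the standard error of the fit and dotted lines at a difference of 1 in either direction. EY3960 lies close to 0, EY4028 reaches 1.23 and EY4174 reaches -6.55.

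Set against one another, the EY lines differed more in these genes than N differed from EY3960. Serpina3h was higher in EY4028 than in EY4174 by 7.78 ± 0.13 and higher in EY3960 than in EY4174 by 6.48 ± 0.13 (SE, log2 scale), while EY3960 was 1.31 ± 0.13 under EY4028. By the distance between the highest and the lowest EY line, Serpina3h was at position 7 of 11630 genes, Serpina3i at 13, Serpina3g at 32, Serpina3f at 83 and Serpina3e-ps at 249. A distance over 1 was found in 8.05% of genes. These are the values by which the genes were chosen. The Yap1 difference between the lines was smaller and of the opposite order, with EY4028 lower than EY4174 by 0.59 ± 0.12 on the same scale.

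The sum over the 8 rows gives the total level of the members analysed, without the 6 other Serpina3 genes and pseudogenes of the cluster. It was 431 ± 48.2 TPM in N (SD, n = 4), with libraries from 390 to 498 TPM. EY3960 had 389 and 407 TPM, EY4028 had 977 and 992 TPM, and EY4174 had 5.20 and 3.75 TPM. Relative to N the mean sum was 0.922 times in EY3960 and 2.28 times in EY4028, and in EY4174 it was 96.4-fold lower. EY4028 exceeded EY4174 by 220-fold and EY3960 by 2.48-fold. The sum of EY3960 overlapped with N, and those of the other lines did not.

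Serpina3h and Serpina3i made up most of the sum wherever it was high. Their ratio was 1.26 in N, with libraries from 1.22 to 1.32, 1.35 in EY3960 and 1.34 in EY4028. In EY4174 it was 0.618, so that Serpina3i led there. Serpina3h over Serpina3g was likewise alike in N, EY3960 and EY4028, at 10.1, 9.55 and 9.85, and lower in EY4174, at 3.44 and 1.82 in its libraries. The makeup of the sum in EY4028, at 2.28 times the level of N, was thus close to that in N. The transcripts left in EY4174 had another makeup, at levels near 1 TPM where the unknown depth matters most.

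**Figure D3:**
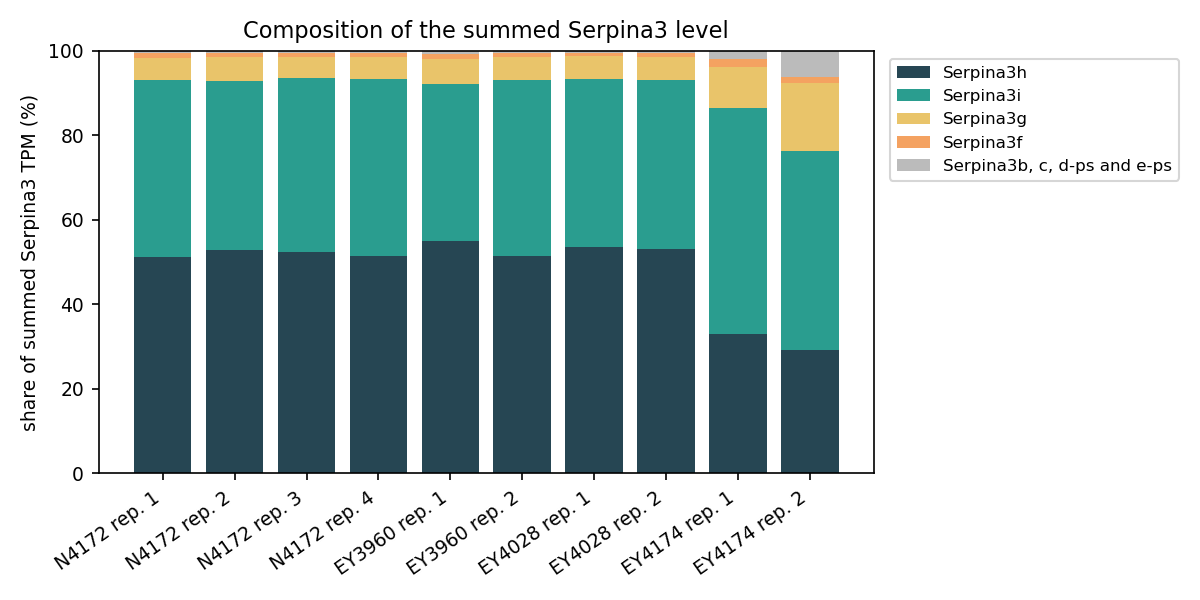
Share of the summed Serpina3 TPM taken by each member, as stacked bars for the 10 libraries. Serpina3h and Serpina3i fill most of every bar, and the EY4174 bars, whose sums were 5.20 and 3.75 TPM, hold less Serpina3h and more Serpina3g than the others.

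The members share sequence, and reads in shared stretches cannot be assigned to a single gene. Of all stretches of 31 bases in the longest GENCODE M21 transcript of each gene, 43.5% in Serpina3h also occurred in another Serpina3 gene, as did 35.7% in Serpina3e-ps, 30.1% in Serpina3g, 27.4% in Serpina3f and 26.7% in Serpina3i. The figure was 16.9% for Serpina3c, 13.0% for Serpina3d-ps and 7.99% for Serpina3b. No such stretch occurred in a gene outside the cluster. Serpina3h shared most with its neighbours Serpina3i, at 28.9%, and Serpina3g, at 24.4%. How the authors' counting divided such reads is not given in the sources used here, so that the level of each member is less certain than the sum, and how far members moved together through shared reads was not tested. Across the 10 libraries the log2 levels of the 5 tested members correlated with Pearson's r from 0.961 to 0.999, and from 0.894 to 0.994 over the 8 libraries without EY4174. These points are libraries of only 4 lines and share reads, and the coefficients are descriptive.

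The nearest tested genes on either side of the cluster did not share its pattern, and genes that were not tested are not covered. The 16 nearest tested genes, 8 on each side in RefSeq order, differed from N by -0.95 to 0.88 in EY4174, with a median of -0.06, and 0 of them exceeded a difference of 1 in any of the 3 lines. Ifi27, an interferon-inducible gene and the nearest tested gene on one side, was lower in all lines, by -0.96 in EY3960, -0.76 in EY4028 and -0.95 in EY4174. Dicer1, which encodes the nuclease that matures microRNAs and lies on the other side, differed by -0.16, 0.23 and 0.10. A wider list of 30 genes around the cluster had 16 tested, of which 0 were called in EY against N or in any line.

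**Figure D4:**
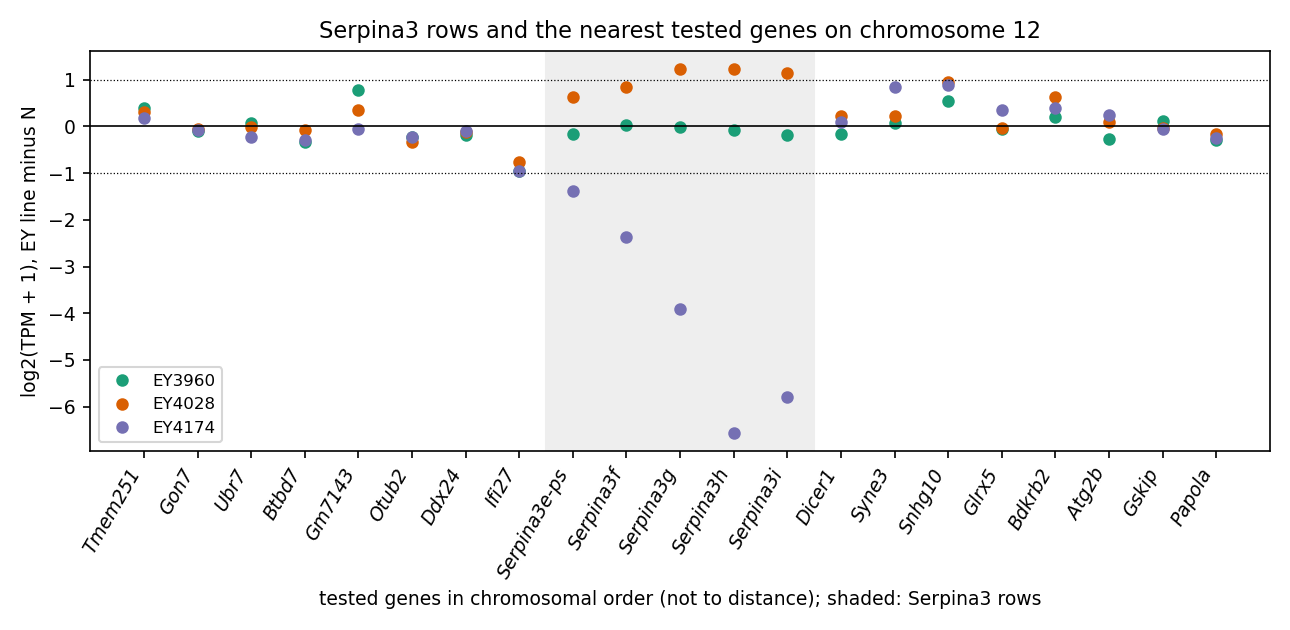
Difference of each EY line from N on the log2(TPM + 1) scale for the 5 tested Serpina3 rows (shaded) and the 8 nearest tested genes on each side, in chromosomal order and not to distance. The flanking genes stay between -0.96 and 0.94 in all 3 lines, while the shaded EY4174 points fall as low as -6.55.

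Other serpins, the proteases they inhibit and the pathways known to raise Serpina3 genes were read from gene lists. Calls in EY took each library as a sample, though the EY libraries came from 3 lines and the N libraries from 1. With each line averaged to 1 value, the genes named from these lists lost their calls in EY. None of 14 other clade A serpin genes listed was among the rows analysed. Of 15 tested serpins of other clades, 1 rose and 2 fell in EY, where 1.85% of all genes rose and 1.7% fell. The intracellular Serpinb8 was higher by 1.34 ± 0.29 (adjusted p = 0.00735, limma), Serpinf1, which encodes the antiangiogenic factor PEDF, was lower by -1.13 ± 0.20 (adjusted p = 0.00208), and Serpinb9, the granzyme B inhibitor, was lower by -1.17 ± 0.27 (adjusted p = 0.00963). Each of these calls was lost when single libraries were left out. For Serpinf1 these were EY3960 replicate 1 and N replicate 3, with -0.99 and -1.10. For Serpinb8 they were EY3960 replicate 1, either EY4028 library and N replicates 1, 2 and 3, with 1.17 to 1.45, and for Serpinb9 either EY4028 library, EY4174 replicate 1 and any N library, with -1.21 to -1.04. Serpinb2, the plasminogen activator inhibitor of keratinocytes, had 2.23 ± 0.52 (adjusted p = 0.0149) and did not pass. In EY4174, 0 of these 15 were called higher and 2 lower, beside 2.01% and 2.94% of all genes. In EY3960, 5 were called higher and 2 lower, beside 3.96% and 3.08%. In EY4028, 3 were called higher and 2 lower, beside 3.56% and 2.18%.

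Of 15 tested serine and cysteine proteases, 0 were called in EY in either direction. The plasminogen activators Plat and Plau had differences of 0.99 ± 0.22 and 1.35 ± 0.37, with adjusted p of 0.00735 and 0.0256 (limma). The membrane protease Prss8 had 0.92 ± 0.21 (adjusted p = 0.0079) and the cathepsin gene Ctsz had -1.95 ± 0.55 (adjusted p = 0.0288). Plat and Prss8 missed only the fold threshold. In EY4174, 4 of the 15 were called lower and 0 higher, beside 2.94% and 2.01% of all genes. In EY4028 2 were called higher and 3 lower, beside 3.56% and 2.18%. In EY3960 4 were called higher and 2 lower, beside 3.96% and 3.08%.

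Among 17 tested genes of the IL-6 family, STAT3 and the acute phase, 1 rose in EY and 0 fell, beside 1.85% and 1.7% of all genes. That gene was C3, the central complement component, at 1.76 ± 0.13 (adjusted p = 4.88e-06, limma), and it was called in each line. With each line averaged to 1 value, C3 lost its call in EY. The kinase gene Pim1, a STAT target, had 0.86 ± 0.27 (adjusted p = 0.0376). In EY4174, C3 was the 1 gene of this list called, and it was higher, as were 2.01% of all genes. EY3960 had 2 called higher and 0 lower, beside 3.96% and 3.08%, and EY4028 had 1 and 0, beside 3.56% and 2.18%. Of 17 tested NF-kB feedback and target genes, 6 rose in EY and 0 fell, again beside 1.85% and 1.7% of all genes, with Tnfaip2 at 2.21 ± 0.11 and Cxcl1 at 1.89 ± 0.11 (SE). In EY4174, 6 of these 17 were called higher and 1 lower, beside 2.01% and 2.94% of all genes. EY3960 had 6 higher and 1 lower, beside 3.96% and 3.08%, and EY4028 had 8 and 0, beside 3.56% and 2.18%. A link of either list to the Serpina3 levels was not tested.

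Of 14 tested interferon gamma response genes, 0 were called in EY. The immunity GTPase gene Irgm1 had -0.92 ± 0.26 and was called lower in EY3960, and Bst2, the antiviral tether, had 0.52 ± 0.27 and was called higher in EY4174 (adjusted p in EY of 0.0238 and 0.176, limma). Of 11 tested glucocorticoid response genes, 0 were called in EY, and Errfi1, a feedback inhibitor of EGFR, had 0.69 ± 0.21 (adjusted p = 0.0347). Median differences are given for EY3960, EY4028 and EY4174 in that order. They were 0.19, 0.27 and 0.04 for the IL-6 list and 0.82, 0.97 and 0.51 for the NF-kB list. The interferon gamma list had -0.04, 0.17 and -0.29, and the glucocorticoid list had 0.12, 0.20 and -0.09. Over all genes the medians were 0.01, 0.09 and -0.01. Each of these was highest in EY4028 and lowest in EY4174, and a link to the Serpina3 levels was not tested.

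The 5 genes most like Serpina3h in pattern were sought among 8092 tested genes with a mean of at least 5 TPM, by the correlation of log2(TPM + 1) over the 10 libraries. They were Gpx8, a peroxidase of the endoplasmic reticulum, with r = 0.986, B2m, the light chain of MHC class I, with 0.976, Fst, the activin antagonist follistatin, with 0.975, Socs5, a member of the family of cytokine signalling suppressors, with 0.964, and the predicted gene Gm44267, with 0.962. The same 5 genes led for the summed level. Without EY4174, over 8 libraries, r was 0.966 for Fst and 0.856 for Gpx8 but 0.599 for B2m, 0.28 for Socs5 and -0.06 for Gm44267. These libraries are of 4 lines, and the coefficients are descriptive.

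Fst and Gpx8 had the order of lines seen for Serpina3h. Fst had 108 to 140 TPM in N with a mean of 123 TPM, 111 and 122 TPM in EY3960, 176 and 186 TPM in EY4028, and 45.5 and 48.4 TPM in EY4174. EY3960 thus overlapped with N, EY4028 lay above and EY4174 below, over a far narrower range than Serpina3h. Gpx8 had 47.2 to 51.1 TPM in N, 47.4 and 48.4 TPM in EY3960, 52.3 and 57.3 TPM in EY4028, and 24.5 and 29.5 TPM in EY4174. B2m had means of 286 TPM in N and 208 TPM in EY4174.

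Markers of granulocytes, leukocytes and keratinocytes also differed between the lines. Basal keratinocyte markers summed to 5336 to 6063 TPM in N and 4289 to 4548 TPM in EY3960. They summed to 5753 to 5793 TPM in EY4028 and 6523 to 7224 TPM in EY4174. The summed level of 5 granulocyte markers, of which 4 were in the table, was 1.73 to 10.3 TPM in N, 17.1 to 17.2 TPM in EY4174, 21.2 to 25.7 TPM in EY4028 and 72.1 to 81.6 TPM in EY3960. Most of it was S100a8 and S100a9, which keratinocytes also express, and Ly6g and Cxcr2 had line means under 1 TPM. That of 7 leukocyte markers, 3 of them in the table, was 42.2 to 68.9 TPM in N, 29.4 to 29.6 TPM in EY4174, 35.9 to 38.5 TPM in EY4028 and 69.04 to 71.9 TPM in EY3960, nearly all of it Cd68, with line means of the leukocyte gene Ptprc at 0.226 TPM or less. The granulocyte and leukocyte sums were both highest in EY3960, the line whose Serpina3 level matched N. Suprabasal keratinocyte markers summed to 493 to 694 TPM in N, 1014 to 1022 TPM in EY3960, 525 to 543 TPM in EY4028 and 551 to 600 TPM in EY4174. Most of each sum was Sbsn, with line means of 424 TPM in N, 797 TPM in EY3960, 459 TPM in EY4028 and 542 TPM in EY4174. Krt13, the keratin of differentiating tongue epithelium, had means of 58.2 TPM in N, 69.3 TPM in EY3960, 8.31 TPM in EY4028 and 4.27 TPM in EY4174, and Krtdap had 56.2, 115, 46.2 and 14.6 TPM in the same lines. Krtdap, Krt13 and Ivl were lowest in EY4174, as the tested Serpina3 members were, whereas Krt4, Krt10, Lor and Sbsn of the same list were not. Krt13 was also low in EY4028, where these members were highest. The part of differentiation in the Serpina3 levels was not tested.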

How the data were processed

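Gene expression was measured by poly(A) RNA-seq in 10 libraries. Per the labels, the submitters' processing notes name STAR 2.7.9, HTSeq 0.13.5, DESeq2 1.34.0 and GRCm39. The deposited values are TPM that the authors computed, and which of these steps, or the transcriptome quantification described for gene set analysis, produced them is not given in the sources used here. Every row was above 0 in at least 6 libraries, and depth is unknown, so no counting interval could be given.

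Here log2(TPM + 1) was fitted for genes reaching 1 TPM in 4 or more libraries with limma 3.58.1 (R 4.3.3, trend and robust options), by genotype and, in a second fit, by line. The table was fitted whole, and p-values were Benjamini-Hochberg adjusted over all 11630 genes. Calls required an adjusted p below 0.01 and a log2 difference beyond 1 in size. Sums and differences between EY lines carry no test, and line against N is descriptive for the members. Members, gene lists and alternatives were chosen with earlier results of these data known. Of each list, called genes were named, at most 4 by smallest adjusted p in EY, with the 5 genes most correlated with Serpina3h and the sum. The fits were tested on simulated data in which lines of the same genotype did not differ. That check therefore does not cover spread between lines. Promoters were RefSeq windows of GRCm38.p6, present for 5 of 8 members and searched for 5 motifs on both strands.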

Additional observations from a re-analysis of the deposited data

Results flagged for a closer look

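Among 18 groups of values examined, 1 had a library set apart. At a rate of 1 in 20 about 0.9 would be, but that rate assumes independent groups of independent libraries. The rows share reads and include their own sum, and the EY groups pool 3 lines, so a chance number cannot be given. This was Serpina3g in N, in which replicate 4 had 25.5 TPM and the other libraries lay close together.

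For the members below, every EY4028 library lay above every N library and every EY4174 library below, and this difference between lines was not tested. The log2 ratio of mean TPM in EY4028 over EY4174 was 8.55 for Serpina3h, 7.43 for Serpina3i, 6.60 for Serpina3g, 6.81 for Serpina3f and 5.50 for Serpina3e-ps, and 7.78 for the sum of the 8 rows. For Serpina3c both EY3960, with a mean of 0.377 TPM, and EY4028, with 0.515 TPM, lay above N, while EY4174 was listed at 0.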

How the results depend on the processing

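The number of Serpina3 members called against N (0 in EY and EY3960, 3 in EY4028, 5 in EY4174) changed under 1 alternative. With at least 1 TPM required in every library, which removes genes that are low in EY4174, 2 members were called in EY4028 and 2 in EY4174, and 455, 371 and 317 genes were called in EY3960, EY4028 and EY4174. For EY against N, where 413 genes were called, 216 were called under that filter, 203 with line as a random block and 2 with the mean of each line. Same-numbered libraries did not deviate together (r from -0.148 to 0.0518), and with the replicate block 221 genes were called and Serpina3g and Serpina3h in EY3960 turned to 0.0507 and 0.0330.

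Without line EY4174, EY against N turned to 0.23 for Serpina3e-ps, 0.44 for Serpina3f, 0.61 for Serpina3g, 0.58 for Serpina3h and 0.48 for Serpina3i. In EY3960, leaving out single libraries moved Serpina3f between -0.12 and 0.19 and Serpina3g between -0.0314 and 0.0600. Without Serpina3h, the log2 ratio of sums was -6.08 for EY4174 over N, 5.92 for EY3960 over EY4174 and 7.23 for EY4028 over EY4174. Leaving out single libraries gave -6.85 to -6.37, 6.26 to 6.73 and 7.56 to 8.04. The cause of these shifts was not tested. Line means, which treat a line as 1 sample, left no Serpina3 member, Yap1 or named list gene called in EY. Yap1 also lost its call without line EY4174, at 0.99, and with the replicate block, at 1.14. Unknown depth limits what can be said of values near 0 in EY4174.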

Other observations

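The ratio of Serpina3h to Serpina3i agreed closely between both EY4174 libraries, at 0.618, although the level of each gene differed between them, with Serpina3h at 1.72 and 1.09 TPM and Serpina3i at 2.78 and 1.76 TPM. In EY3960 the same ratio was 1.47 and 1.23 in its libraries. Whether the deposited values of these genes came from shared reads was not tested.

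Gm44267, a predicted gene, was listed at 0 in both EY4174 libraries, where it had 71.9 to 94.2 TPM in N, 196 and 264 TPM in EY3960 and 111 and 123 TPM in EY4028. Like the tested Serpina3 genes it was lowest in EY4174, but its highest level was in EY3960 rather than in EY4028.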
